A study of Homo sapiens with 6 samples.

Results

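The core genes of the NF-kB pathway were followed in U87 cells, a human glioblastoma cell line, 96 h after lentiviral infection. Infected cells were selected, for which the study used puromycin or blasticidin according to the construct. The core genes are a list of 10 genes that code for adaptors, ubiquitin ligases, kinases and DNA-binding subunits of the canonical and the noncanonical pathway. A gene was read through the probeset that carries its symbol in the platform's table, and where several did, through the probeset with the greatest mean over the 6 arrays. This gave 8 of the 10 genes, TRAF3, BIRC2, MAP3K14, CHUK, NFKB1, RELA, NFKB2 and RELB, each with 1 probeset, of 14884 named genes in all. TRAF2 was not analysed here, and BIRC3 is described apart, through a name taken from another source. The probesets were chosen by their mean level over the arrays and the genes were listed with earlier results of these data known, so the counts over the list are descriptions.

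RNA of cells transduced with lentivirus to knock down ZNF768 (ZNF768 knockdown, 3 arrays) was compared with RNA of cells labelled Control (3 arrays), all from the same line grown in medium with serum. ZNF768 is a zinc finger protein that the study links to proliferation and senescence, and the arrays ask which genes respond to its loss. The labels call the arrays of a group biological replicates. They give a single knockdown condition and name neither the hairpin nor what the control virus carried, so an effect of ZNF768 loss and an effect of that hairpin cannot be told apart. Expression was measured on Affymetrix Human Gene 2.0 ST arrays, as a log2 value per probeset from Robust Multichip Average (RMA).

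NF-kB is a family of dimeric transcription factors held in the cytoplasm until a signal frees them. In the canonical pathway, receptors such as those for TNF act through TRAF adaptors and the cIAP ubiquitin ligases on the IKK kinases, which remove IkB proteins and release dimers of p50 (from NFKB1) and RelA. In the noncanonical pathway, a complex of TRAF2, TRAF3 and the cIAPs keeps the kinase NIK (MAP3K14) low. When that complex is lost NIK builds up, activates IKK alpha (CHUK), and the NFKB2 precursor p100 is cut to p52, the partner of RelB. NF-kB drives inflammatory and survival genes, is known for its activity in mesenchymal glioblastoma, and controls much of the secretory programme of senescent cells.

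NFKB2, RELB and BIRC3 are textbook targets of NF-kB itself, so the bases around the starts of core genes are given here before the expression values. They come from RefSeq (GRCh38.p14), as windows from 250 bases before to 50 bases after a start, which the table at hand holds for 9 of the 10 genes in 14 windows, with no entry for RELB. Both strands were searched for a pair of loose forms of the kB element, GGGA or GGGG followed by any 4 bases and then CC, and matches may overlap. Of 35116 windows of all genes, 40.7% hold at least 1 of them, 25.6% the form with GGGA and 26.4% the form with GGGG. Of the 14 windows of core genes 12 do, and 8 genes of the 9 have a match. The share of all genes with a match was not computed, and a gene with several windows has more chances. Windows 1 and 2 of BIRC2 overlap and hold the same GGGAGCGCCC. The windows shown are from NFKB2 and NFKB1 and from BIRC3 and BIRC2, 2 pairs of related genes, 5′ to 3′ on the strand of the gene, with matches in capitals. The windows of a gene are numbered by position, and 5 of the 14 are shown. Those not shown are 1 more each of NFKB2, NFKB1 and BIRC2 and all windows of TRAF2, TRAF3, MAP3K14, CHUK and RELA. A match on the reverse strand appears as its complement.
NFKB2 window 2, chr10:102394328-102394627, plus strand: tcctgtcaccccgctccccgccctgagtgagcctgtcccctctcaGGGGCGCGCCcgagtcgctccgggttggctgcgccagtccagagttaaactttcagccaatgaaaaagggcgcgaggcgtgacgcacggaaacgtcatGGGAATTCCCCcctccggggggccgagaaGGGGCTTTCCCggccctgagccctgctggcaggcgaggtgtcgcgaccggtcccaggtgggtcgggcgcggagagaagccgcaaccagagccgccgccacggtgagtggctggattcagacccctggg
NFKB2 window 3, chr10:102395455-102395754, plus strand: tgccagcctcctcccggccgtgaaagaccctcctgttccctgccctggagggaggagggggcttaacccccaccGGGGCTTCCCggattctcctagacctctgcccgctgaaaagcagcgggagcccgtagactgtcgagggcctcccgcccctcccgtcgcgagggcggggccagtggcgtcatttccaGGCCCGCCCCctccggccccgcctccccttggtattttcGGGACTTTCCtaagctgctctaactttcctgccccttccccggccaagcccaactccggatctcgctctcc
NFKB1 window 1, chr4:102501109-102501408, plus strand: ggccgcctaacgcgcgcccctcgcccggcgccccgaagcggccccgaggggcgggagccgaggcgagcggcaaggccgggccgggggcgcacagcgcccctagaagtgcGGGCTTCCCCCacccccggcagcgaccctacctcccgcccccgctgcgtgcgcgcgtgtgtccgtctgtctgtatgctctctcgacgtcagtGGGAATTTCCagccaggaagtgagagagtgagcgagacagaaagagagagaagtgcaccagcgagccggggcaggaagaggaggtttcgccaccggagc
BIRC3, chr11:102317234-102317533, plus strand: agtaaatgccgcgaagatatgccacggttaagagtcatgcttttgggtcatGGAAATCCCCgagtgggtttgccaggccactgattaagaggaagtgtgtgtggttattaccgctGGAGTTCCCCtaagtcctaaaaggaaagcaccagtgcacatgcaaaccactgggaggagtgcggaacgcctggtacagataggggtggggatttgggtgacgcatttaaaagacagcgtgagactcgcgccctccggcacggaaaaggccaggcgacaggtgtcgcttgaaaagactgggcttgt
BIRC2 window 1, chr11:102346964-102347263, plus strand: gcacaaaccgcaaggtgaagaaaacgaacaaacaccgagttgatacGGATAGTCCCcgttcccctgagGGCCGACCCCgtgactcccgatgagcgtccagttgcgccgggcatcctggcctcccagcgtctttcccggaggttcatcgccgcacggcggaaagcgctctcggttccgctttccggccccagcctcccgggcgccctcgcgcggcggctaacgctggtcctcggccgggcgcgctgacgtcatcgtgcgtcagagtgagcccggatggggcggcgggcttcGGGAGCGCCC

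Positions are counted from 1 at the 5′ end of a window. Window 2 of NFKB2 holds the palindrome GGGAATTCCC at positions 144 to 153, which occurs in 13 of all 35116 windows (0.037%). Window 3 holds GGGACTTTCC at positions 230 to 239, found in 0.19% of windows. The NFKB1 window has GGGAATTTCC at positions 202 to 211, found in 0.15%. The BIRC3 window has GGGGATTTCC on its reverse strand at positions 52 to 61, and the same letters stand on the forward strand of the TRAF3 window at positions 218 to 227 (0.11% of windows). In MAP3K14 the one match is the GC-rich GGGGGCGGCC, shared with 277 windows (0.79%), and in BIRC2 window 1 has GGGACTATCC on its reverse strand at positions 47 to 56 (0.023%). TRAF2 has no match. The exact words were named after they had been found, so their small shares do not measure enrichment. The forms that were searched for are in 25.6% and 26.4% of all windows. A match is a string of letters and was not tested for binding.

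ZNF768 itself read 7.02, 7.14 and 7.31 on the log2 scale in ZNF768 knockdown cells, against 8.49, 8.54 and 8.54 in control cells, so the targeted gene was lower in all knockdown arrays (log2 change -1.36 ± 0.0851 SE, limma adjusted p = 0.00015). Medians of the arrays were 6.40 to 6.44. Pearson correlations across probesets were 0.993 to 0.994 within the knockdown arrays, 0.992 to 0.994 within the control arrays and 0.977 to 0.980 between the groups. The 4 measured markers of mesenchymal glioblastoma cells lay above the median of every array, while VIM, CD44 and NES fell and TNC did not pass the test (summed level 13.3 to 13.5 in knockdown and 13.7 in control cells, log2). Also above the median of every array were 5 of 7 myeloid, 2 of 4 glial and 1 of 2 endothelial markers and the 1 lymphocyte marker. This level therefore does not set the cell types apart. None of 4 glial, 2 endothelial and 1 lymphocyte markers passed, with summed levels of 8.45 to 8.46, 7.12 to 7.39 and 6.91 to 6.98 in knockdown cells, against 8.37 to 8.54, 7.31 to 7.45 and 7.06 to 7.12 in control cells. Among 7 measured myeloid markers 3 fell and none rose, beside 16.8% of all genes that fell and 16.6% that rose. Their summed level was 10.5 to 10.6 in knockdown and 12.9 in control cells. Most of that gap came from CD68, a lysosomal protein, with a mean of 9.62 in knockdown and 12.7 in control cells, whereas the defining myeloid factor SPI1 was at 7.56 in knockdown and 7.49 in control cells. The calls of the other myeloid genes, CSF1R and LAPTM5, were lost in 4 of 6 fits with a sample left out. PTPRC and AIF1 were not analysed here. No marker was at 0, and the part of these markers in the results was not tested. Where bulk RNA of a gene is lower, fewer cells that express it and less RNA per cell cannot be told apart.

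The groups were compared with limma in a single fit of all 53617 probesets, and a gene rose or fell when its p-value, adjusted over all probesets by the Benjamini-Hochberg method, was under 0.05. Of the 8 core genes 4 rose (NFKB2, MAP3K14, RELB and RELA) and 2 fell (BIRC2 and CHUK), while NFKB1 and TRAF3 did not pass. Among all 14884 genes 16.6% rose and 16.8% fell, 33.4% in all. With arrays centred on housekeeping genes 3257 genes rose and 2137 fell, against 2466 and 2501 otherwise. The log2 change is the knockdown mean minus the control mean, given with its standard error (SE). The median was 0.17 over the 8 core genes and 0.04 over all genes. The log2 changes of the core genes ran from -1.89 to 1.58. Groups did not overlap in 7 of the 8, against 51.5% of all genes. Knockdown arrays were all higher in 4 of them and all lower in 3, against 28.0% and 23.5% of all genes. The means of the 8 probesets lay between percentiles 79.4 and 95.4 of all probesets, so all 8 passed the filter on low values that was tried as an alternative. The shares over all genes include many dimmer probesets. Shares among genes of a like level were not computed, so the core list and all genes are not matched for level.

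**Figure D1:**
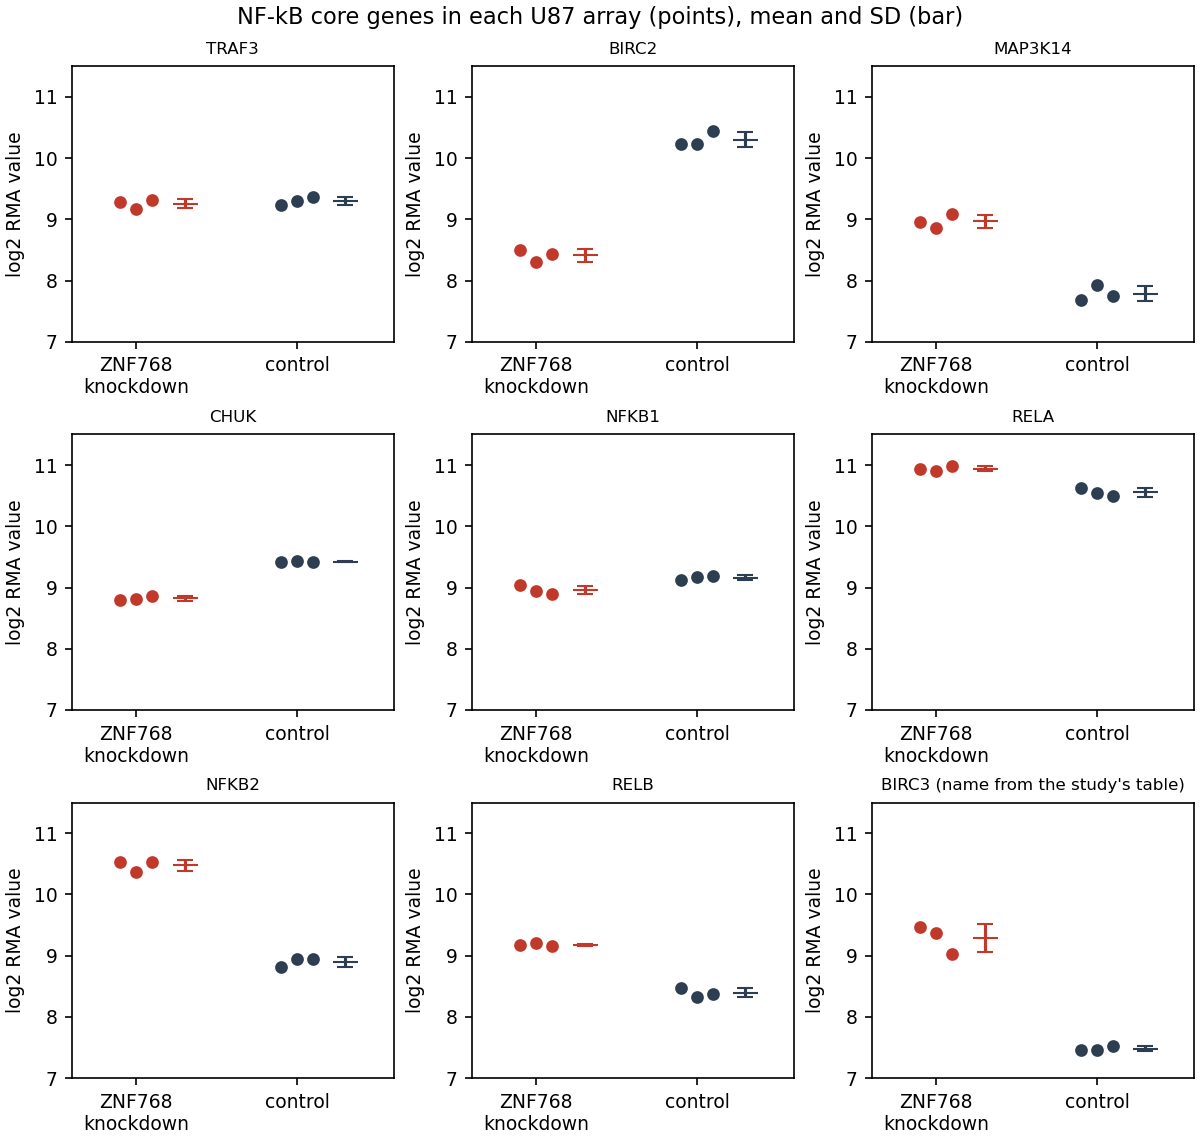
Log2 RMA values (y axis) of the 8 core genes and of BIRC3 in each array of ZNF768 knockdown (left, red) and control cells (right, dark), with the mean and SD of 3 arrays as a bar. NFKB2, MAP3K14, RELB, RELA and BIRC3 stand above their control values and BIRC2, CHUK and NFKB1 below, while the TRAF3 values overlap. NFKB1 did not pass the test. Heights are not comparable between genes.

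The complex that holds NIK in check was represented by TRAF3 and BIRC2. The arrays read RNA, so NIK protein, the cutting of p100 to p52 and the activity of either pathway were not measured. BIRC2, which encodes the ubiquitin ligase cIAP1, had the largest change of the core genes. It read 8.50, 8.30 and 8.43 in ZNF768 knockdown cells, against 10.24, 10.24 and 10.44 in control cells on the log2 scale. All knockdown arrays were low, and the gap between the groups was far wider than the spread within them. The values of control replicates 1 and 2 were equal to every digit in the file, so the SD of the control group, 0.12, rests on fewer distinct values. BIRC2 was at 0.269 of its control level (log2 change -1.89 ± 0.0861 SE, limma adjusted p = 5.21e-05), and the change stands at rank 135 among the falls of 14884 genes.

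TRAF3, the adaptor that binds NIK and brings it to the cIAPs, read 9.29, 9.17 and 9.31 in knockdown cells and 9.24, 9.30 and 9.36 in control cells. The groups overlap. Its log2 change was -0.05 (95% interval -0.21 to 0.11, limma adjusted p = 0.673), and 0.017 when arrays were centred on housekeeping genes. The interval leaves out changes of the size seen for BIRC2.

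BIRC3, which encodes cIAP2, the close relative of cIAP1 and a neighbour of BIRC2 on chromosome 11, has no named probeset in the platform's table. A probeset that carries this name in the study's own supplementary table was read instead. The part of that table at hand is sorted by rise and holds only the largest rises, so a rise was a condition for reading BIRC3. Its values are a description with no test, and it enters no count. The probeset read 9.47, 9.37 and 9.02 in ZNF768 knockdown cells, against 7.46, 7.46 and 7.53 in control cells. Its knockdown arrays were all high and more scattered than the control arrays, with an SD of 0.24 in knockdown and 0.04 in control cells (n = 3 each). The log2 change was 1.81.

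Of the kinases of the noncanonical pathway, MAP3K14 rose and CHUK fell. MAP3K14, which encodes NIK, read 8.95, 8.87 and 9.08 in ZNF768 knockdown cells and 7.68, 7.93 and 7.76 in control cells on the log2 scale. The lowest knockdown array lay above the highest control array. It was 2.27 times its control level (log2 change 1.18 ± 0.0912 SE, limma adjusted p = 0.00032), the rise at rank 91 of 14884 genes. A rise of at least 2-fold past the test was seen in 1.22% of all genes. MAP3K14-AS1, an antisense gene at the same locus, had a log2 change of 0.20 (limma adjusted p = 0.239) and overlapping groups.

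CHUK, which encodes IKK alpha, the kinase that NIK activates, read 8.79, 8.81 and 8.87 in ZNF768 knockdown cells, against 9.41, 9.44 and 9.42 in control cells. Its values were tight within each group, with an SD of 0.04 in knockdown and 0.01 in control cells. CHUK was at 0.659 of its control level (log2 change -0.60 ± 0.0531 SE, limma adjusted p = 0.000526).

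Of the DNA-binding subunits, those of the noncanonical dimer rose, as did RELA and, outside the core list, REL (log2 change 0.84). NFKB2, which encodes p100 and p52, read 10.52, 10.37 and 10.54 in ZNF768 knockdown cells and 8.81, 8.95 and 8.94 in control cells on the log2 scale. The gap between the groups was many times the SD within either of them. It was 2.98 times its control level (log2 change 1.58 ± 0.0743 SE, limma adjusted p = 5.73e-05), the rise at rank 23 of 14884 genes. RELB, whose protein pairs with p52, read 9.17, 9.20 and 9.16 in knockdown cells and 8.48, 8.33 and 8.38 in control cells. All knockdown arrays were above all control arrays. RELB was 1.72 times its control level (log2 change 0.78 ± 0.0617 SE, limma adjusted p = 0.000341).

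Of the canonical subunits, RELA rose and NFKB1 did not pass the test. RELA, which encodes the transactivating subunit p65, read 10.93, 10.90 and 10.98 in knockdown cells and 10.63, 10.55 and 10.49 in control cells. The groups did not overlap, and RELA was 1.30 times its control level (log2 change 0.38 ± 0.0621 SE, limma adjusted p = 0.00589). NFKB1, which encodes p105 and p50, read 9.04, 8.94 and 8.90 in knockdown cells and 9.12, 9.18 and 9.19 in control cells. Its knockdown values were all below its control values, yet the log2 change of -0.20 (95% interval -0.35 to -0.05) had an adjusted p of 0.0647 from limma and did not pass. The test was passed under 4 of 16 alternatives, with adjusted p from 0.0243 to 0.186 over all of them.

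**Figure D2:**
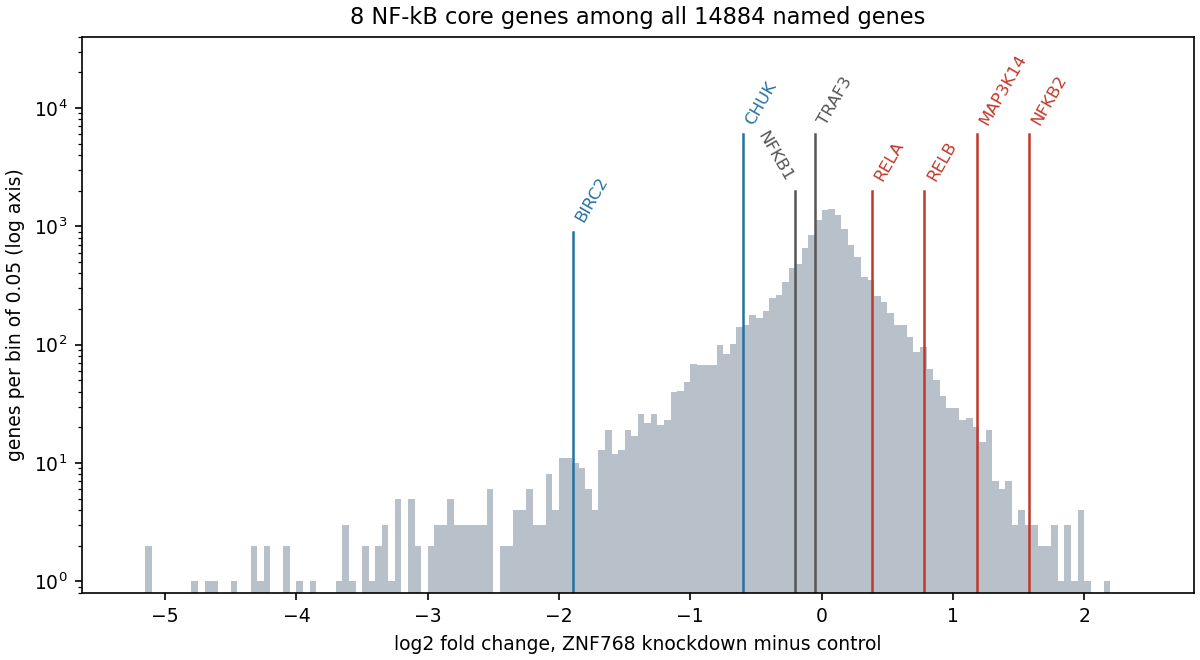
Histogram of the log2 changes of all 14884 named genes, ZNF768 knockdown minus control (x axis), with the number of genes per bin on a log axis (y axis). Vertical lines mark the 8 core genes that rose (red), fell (blue) or did not pass the test (grey). NFKB2 at 1.58 and BIRC2 at -1.89 lie in the thin tails and TRAF3 at -0.05 near the centre.

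To set a noncanonical gene beside its canonical or downstream partner, the log2 values of 2 probesets were subtracted within each array. The 3 pairs were chosen after the values of the genes had been seen, so they are described without a test. Relative to the control mean, NFKB2 minus NFKB1 was 1.70 to 1.90 in ZNF768 knockdown arrays and -0.04 to 0.03 in control arrays, a difference between their log2 changes of 1.78. For RELB minus RELA these values were 0.34 to 0.46 in knockdown arrays and -0.06 to 0.05 in control arrays, a difference of 0.40. For MAP3K14 minus CHUK they were 1.69 to 1.85 in knockdown arrays and -0.10 to 0.12 in control arrays, a difference of 1.78. The groups did not overlap in any of the 3 pairs. For NFKB2 minus NFKB1 and MAP3K14 minus CHUK this follows from the single genes. In both, the first gene was higher and the second lower in all knockdown arrays. The share over all pairs of genes was not computed.

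**Figure D3:**
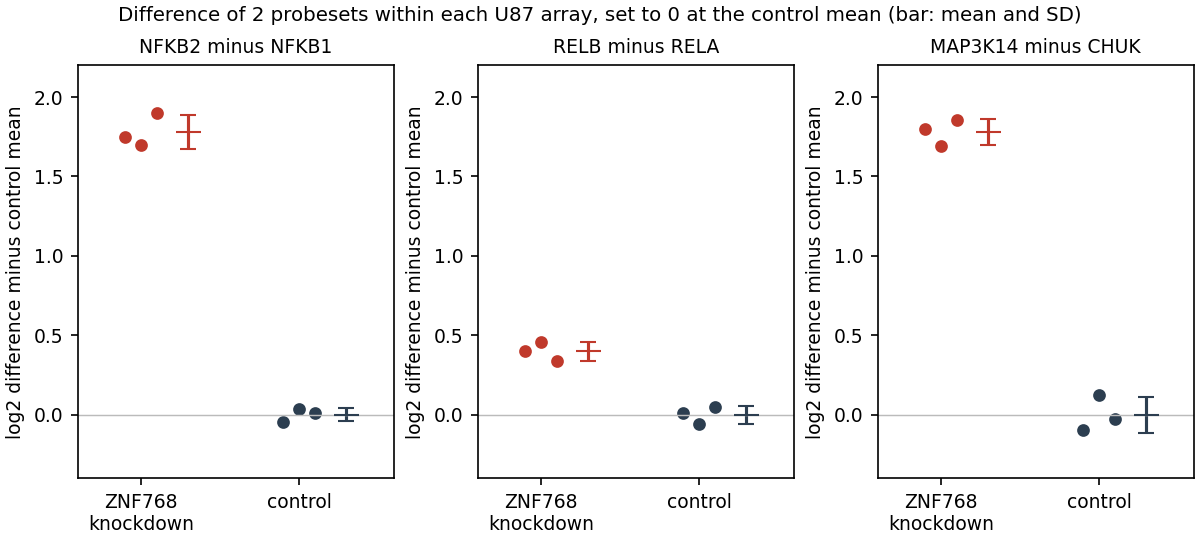
Log2 difference between 2 probesets within each array, set to 0 at the mean of the control arrays (y axis), for ZNF768 knockdown (left, red) and control cells (right, dark), with the mean and SD of 3 arrays as a bar. The shift is 1.78 for NFKB2 minus NFKB1 and for MAP3K14 minus CHUK, and 0.40 for RELB minus RELA.

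Other genes of the pathway came from a list of 84, of which 47 have a named probeset. Of these 12 rose and 9 fell, with a median log2 change of -0.02, against 16.6% of all genes that rose, 16.8% that fell and a median of 0.04. REL, which encodes the remaining activating subunit c-Rel, rose with a log2 change of 0.84 (± 0.0944 SE). The kinase MAP3K8, known as TPL2 and bound by p105, had a log2 change of 1.22 (± 0.0853 SE, limma adjusted p = 0.000229), the largest rise of the 4 measured kinases. MAP3K7, which encodes the IKK-activating kinase TAK1, fell by 0.34 on the log2 scale. MAP3K3 fell by 0.35, a call that was lost in 5 of 6 fits with a sample left out.

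Upstream, the ligand TNF was 1.34 times its control level (log2 change 0.43, limma adjusted p = 0.00304), the one ligand of 10 that could be read. TNF has 8 probesets, of which 7 share the same log2 change, SE and mean level and so count as 1 reading. The other had a log2 change of 0.62. Of 3 measured receptors TLR3, a sensor of double-stranded RNA, rose with a log2 change of 0.66, and TLR2 and TLR4 had values of 0.01 and -0.04. Among 13 measured adaptors and ubiquitin ligases 2 rose and 4 fell, beside 16.6% of all genes that rose and 16.8% that fell. TRAF1, an adaptor found in complexes with TRAF2 and the cIAPs, rose with a log2 change of 0.75 (± 0.0871 SE), and TAB3, a partner of TAK1, with 0.70. MYD88, the adaptor of Toll-like and interleukin receptors, fell by 0.80 (± 0.111 SE), its kinase IRAK1 fell by 0.64 and RNF31, the catalytic subunit of the linear ubiquitin ligase, fell by 0.58 on the log2 scale. TAB1 also fell by its brighter probeset (log2 change -0.39), while its other probeset had -0.04.

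Of 12 listed IkB proteins and negative regulators 6 were measured, and NFKBIA and TNFAIP3 were not analysed here. None of the 6 rose and 1 fell, against 16.6% of all genes that rose and 16.8% that fell. It was TNIP1, a partner of the deubiquitinase A20, which fell by 0.56 on the log2 scale. Another, the deubiquitinase CYLD, had a log2 change of 0.13. The 4 lymphoid chemokine genes known from the noncanonical pathway, CXCL12, CXCL13, CCL19 and CCL21, did not pass the test. Their log2 changes ran from -0.09 to 0.15. CXCL13 lay below the lower quartile of every array, with a mean of 4.84 in knockdown and 4.69 in control cells. Whether these 4 genes are expressed in U87 cells was not tested. Of 23 listed textbook targets 15 were measured, and IL6, SOD2 and CXCL1 were among those not analysed here. Of the 15, 6 rose and 2 fell, with a median of 0.00, beside the shares of 16.6% and 16.8% over all genes. ICAM1, a cell adhesion molecule that the study counts among p53 targets, had the largest rise of these 15. It read 11.48, 11.51 and 11.23 in ZNF768 knockdown cells and 9.47, 9.65 and 9.69 in control cells. Its groups were far apart, with a log2 change of 1.80 (± 0.102 SE, limma adjusted p = 0.000107). The monocyte chemokine CCL2 followed at 0.98 (± 0.0670 SE) and CD83, a surface protein of activated cells, at 0.91 (± 0.0740 SE). PTGS2, which encodes cyclooxygenase 2, fell by 0.67 (± 0.0898 SE) and BCL2A1, a survival gene of the BCL2 family, by 0.24 on the log2 scale. BCL2A1 did not pass in any of the 6 fits with a sample left out. The calls of CXCL3 and CCL5 were lost in 5 and 4 of the 6 such fits. The chemokine CXCL8 had a log2 change of -0.24 (limma adjusted p = 0.111).

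**Figure D4:**
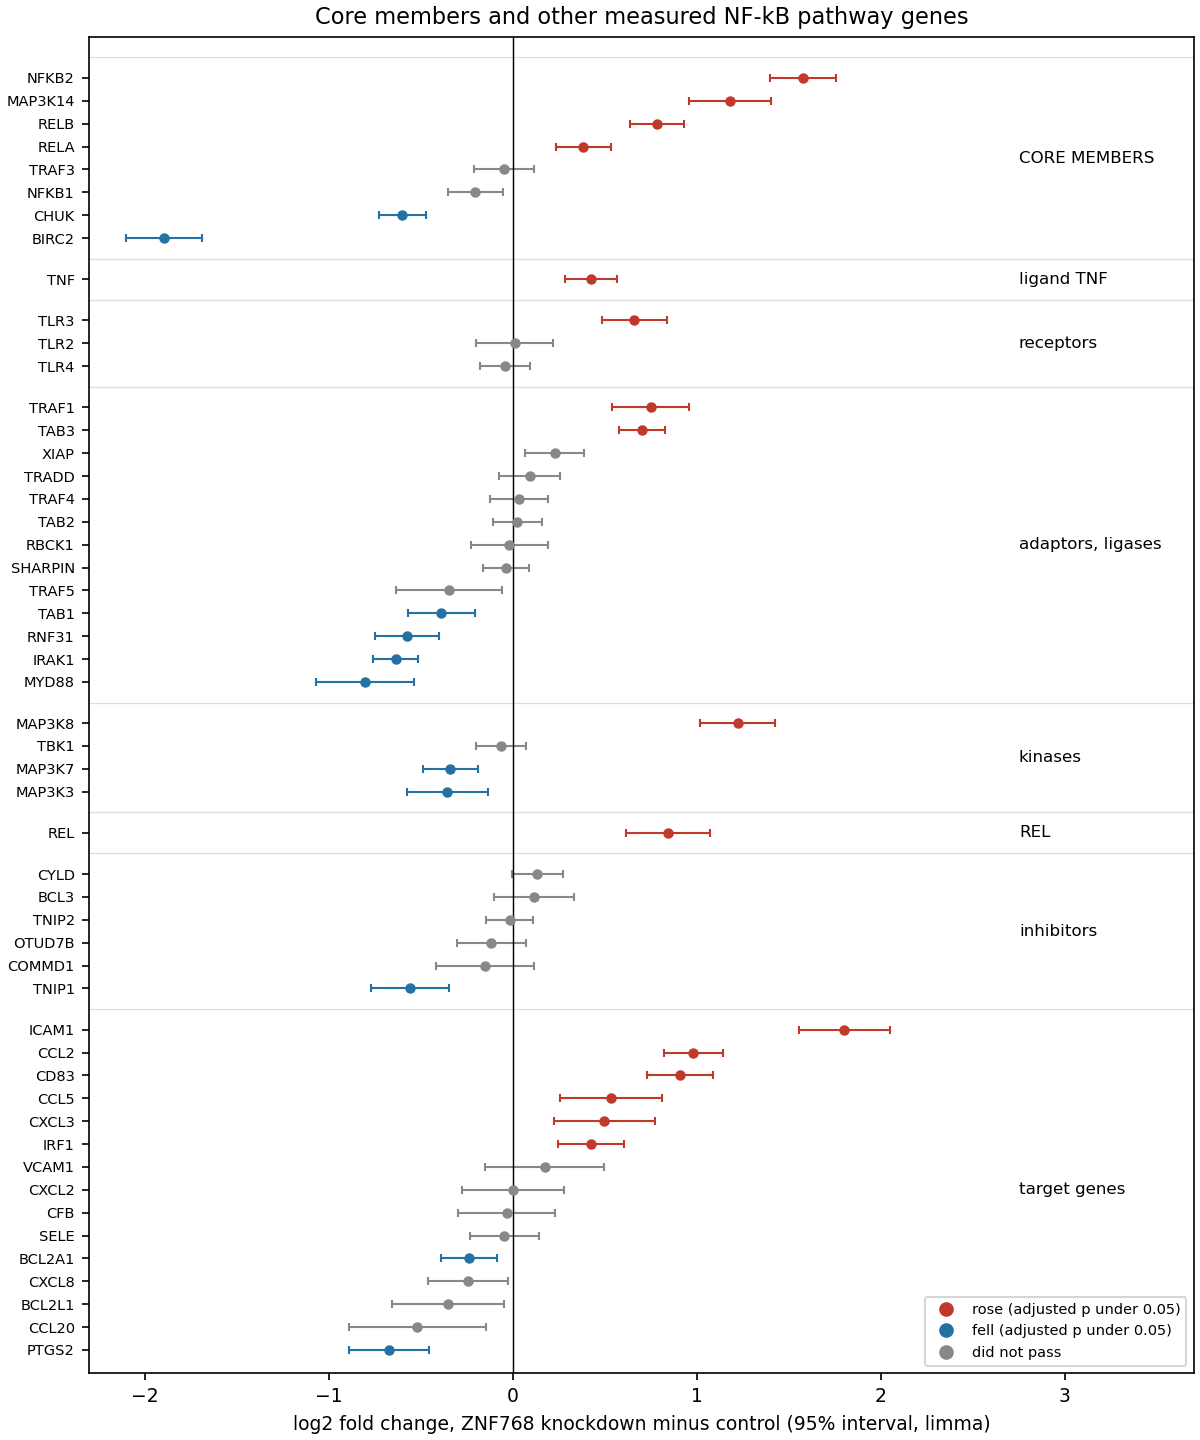
Log2 fold changes with 95% intervals from limma (x axis), ZNF768 knockdown minus control, for the 8 core genes and, below them, the other measured pathway genes by role, without the 4 lymphoid chemokine genes. Red genes rose, blue genes fell and grey genes did not pass the test. Core genes reach from -1.89 for BIRC2 to 1.58 for NFKB2. Of the 47 other measured pathway genes, counted with the 4 not shown, 12 rose and 9 fell. Among all genes 16.6% rose and 16.8% fell.

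The genes whose values over the 6 arrays were nearest to those of BIRC2, the core gene with the largest change, were HAS2, which makes hyaluronan, STIL, a centriole gene, and CDC25C, a phosphatase of mitotic entry. Their root mean square differences from BIRC2, after each gene was centred on its own mean, were 0.0498 for HAS2, 0.0670 for STIL and 0.0675 for CDC25C on the log2 scale, and their log2 changes were -1.91, -1.97 and -1.99. Since 6 arrays fall into 2 groups, a gene with a fall of similar size comes out as near.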

How the data were processed

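The authors deposited a single table of log2 expression values per probeset, made with Robust Multichip Average in the oligo package, a procedure whose usual steps are background correction, quantile normalization and summary over probes. Versions and a genome build are not given in the sources used here. No scanner values were analysed, so no background is known for a probeset and the number of arrays limits precision. Gene symbols came from the platform annotation and were brought up to date by Entrez identifier (16098 of 16098 matched). No probeset carried several symbols and 37519 were unnamed. Groups came from the sample titles. limma 3.58.1 in R 4.3.3 (lmFit, eBayes, two-sided) was run on all 53617 probesets without a filter, and the procedure was tested on simulated data.

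The members and lists were chosen with earlier results of these data known. Named are ZNF768, the core genes, up to 3 rises and 3 falls of each pathway list past the test without overlap, and the 3 genes nearest to the core gene with the largest change. Others named, such as BIRC3, MAP3K14-AS1, TAB1, TLR2, TLR4, CYLD, CXCL3, CCL5, CXCL8, the markers and the lymphoid chemokines, were picked with their values in view. The fit was repeated after cyclic loess, after centring arrays on 6 housekeeping genes, of which 2 fell and none rose, without the dimmer probesets (mean under the median), on named probesets alone, with probesets averaged per gene, with robust and trended eBayes, with weights for arrays, with a replicate block, without each sample, at a threshold of 0.01 and, added after the data were seen, without the 1096 probesets with equal values in a group.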

Additional observations from a re-analysis of the deposited data

How the results depend on the processing

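The counts of core genes that rose (4) and of BIRC2, CHUK, MAP3K14, RELA, NFKB2 and RELB past the test in their direction held under all 16 alternatives. NFKB1 joined the falls with cyclic loess (-0.226, adjusted p = 0.0417), without low probesets (adjusted p = 0.0243), with named probesets only (adjusted p = 0.0249) and with trend and robust settings (adjusted p = 0.0329), which made 3 core genes that fell. Fewer probesets were tested in the settings without low probesets and with named probesets only, and for the others the cause was not tested. TRAF3 changed sign with housekeeping centring (0.017). At a threshold of 0.01, 1506 of all named genes rose. With a sample left out, 4 core genes rose and 2 fell in every fit, 10 to 12 of the other pathway genes rose and 7 to 10 fell, and 1873 to 2113 of all genes rose and 1998 to 2271 fell. With the replicate number as a block the core counts were again 4 and 2, other pathway genes that fell numbered 6 and all genes 1865 rises and 2029 falls. Deviations of same-numbered samples had correlations of -0.068 to 0.022. The labels do not say whether same-numbered samples were handled together, and correlations from so few arrays cannot decide it. The lack of scanner values leaves the floor of low probesets unknown.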
